A study of Solanum lycopersicum with 10 samples.

Results

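The skin of the mature green fruit, called the exocarp, was compared with leaves in tomato cv. Ailsa Craig, a cultivar whose fruits ripen red (the labels spell it Alisa Craig). The comparison took the 2 libraries labelled as mature green exocarp and the 2 libraries labelled as leaf, which are 4 of the 10 libraries of the series, and the tissue and replicate number of each came from its label. The exocarp is the outer layer of the fruit wall, with epidermal cells under a cuticle, and the leaf material was pooled from plants at the mature green and the red ripe fruit stage, so a leaf library is not from a single stage. The paper used Ailsa Craig as a wild-type cultivar, and neither the labels nor the paper's methods name a treatment or a transgene for these plants. How the exocarp was separated from the tissue beneath it is not given in the sources used here.

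Both organs are green and both face the air. The leaf is the main photosynthetic organ of the plant, with chloroplast-rich mesophyll, veins, stomata and hairs, whereas the skin of an unripe tomato has few chloroplasts, no stomata and a much thicker cuticle of cutin and wax. Genes for cuticle lipids and for defence proteins are widely known to be active in fruit epidermis, and genes for light capture and carbon fixation in leaves.

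Only 13 genes could be named. The files list genes by identifier without names, and the paper pairs 12 candidate genes and the reference gene SlACTIN with an identifier. The 12 candidates were chosen by the study on these same libraries, for a low leaf level and for an exocarp level far above that of the mesocarp, the flesh under the skin. Their low leaf level is therefore a part of how they were picked, and their higher level in the exocarp than in leaves is no independent evidence of a difference. The defining genes of leaf mesophyll, stomata or fruit skin carry no name in the sources used here, so the tissue labels were not checked against markers.

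The 4 libraries held 32819863 to 38373229 counts. Levels in CPM are counts per library size after TMM scaling, a method that assumes that most genes do not differ, and 22801 of the 35288 genes listed passed a filter on low counts and were tested. More genes were detected in leaves, 22580 and 22505 genes over 3 counts in the 2 leaf libraries and 20663 and 20621 in the 2 exocarp libraries, although the exocarp libraries were the deeper ones. At these depths 3 counts correspond to between 0.0692 and 0.101 CPM. In bulk tissue, fewer cells of a type and less RNA per cell cannot be told apart.

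Most genes differed between the green skin and the leaf. Of the genes tested, 71% passed an adjusted p-value of 0.05 in edgeR's quasi-likelihood test, with 34.6% higher and 36.4% lower in the exocarp, so a call by itself says little about any gene here. Among the called genes, 31.5% changed by less than 1 on the log2 scale. In the exocarp libraries, the genes called higher in the exocarp took 66.6% and 68.4% of all counts, and in the leaf libraries the same genes took 20.2% each. The genes called lower took 19.4% and 17.7% of the exocarp counts and 68.4% and 68.5% of the leaf counts. Both sets were called on these same libraries, so the direction of these shares follows from the calls and is no finding. The balance between the directions depended on the scaling: 58.5% of the called genes were higher in the exocarp when counts were scaled by library totals, in place of 48.8%, and the median log2 fold change of all genes tested moved from -0.02 to 0.24.

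The large differences lay mainly on the leaf side. With the lower tissue set to at least 3 counts, 882 of the called genes had a mean CPM at least 10-fold higher in the exocarp and 2810 at least 10-fold higher in leaves. At least 100-fold differences were found for 123 and 722 genes, and at least 1000-fold differences for 16 and 83 genes. The order was the same when counts were scaled by library totals, with 1068 against 2499 genes at 10-fold. With each of the 4 libraries left out in turn, from 790 to 949 genes were at least 10-fold higher in the exocarp and from 2578 to 2886 in leaves.

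**Figure D1:**
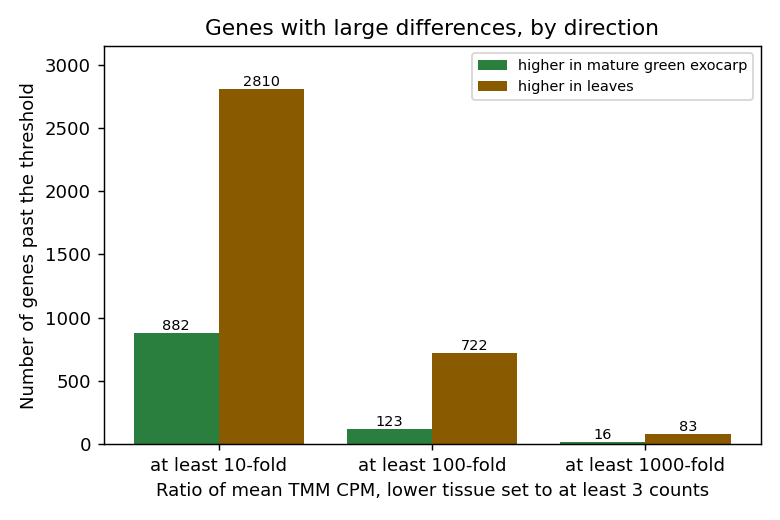
Number of genes past the adjusted p threshold (vertical axis) with a ratio of mean TMM CPM of at least 10, 100 or 1000 (horizontal axis), as green bars for genes higher in mature green exocarp and brown bars for genes higher in leaves. At each size the brown bar is the taller one, with 2810 against 882 genes at 10-fold and 83 against 16 at 1000-fold.

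All 12 candidate genes were higher in the exocarp than in leaves, against 34.6% of all genes tested, and in each of them both exocarp libraries lay over both leaf libraries, against 41.4% of all genes tested (in 43.9% the exocarp lay under the leaves). The median log2 fold change of the 12 was 4.15, the same whether SlABCG10 is taken at its fitted value or at its lower bound, and that of all genes tested was -0.02. The smallest fold change of the 12 was that of SlHH3, and 1447 genes (6.35% of those tested) had a log2 fold change at least as high. The candidates were picked on these libraries partly for a low leaf level. Their counts and median therefore cannot be read against those of all genes. The levels below are in FPKM, the count divided by transcript length and library size, which allows genes to be compared with each other. FPKM lacks the TMM scaling, which lowers the exocarp relative to leaves (factors 1.13 and 1.09 against 0.907 and 0.905). Exocarp-to-leaf ratios of FPKM therefore run above the fitted fold changes.

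**Figure D2:**
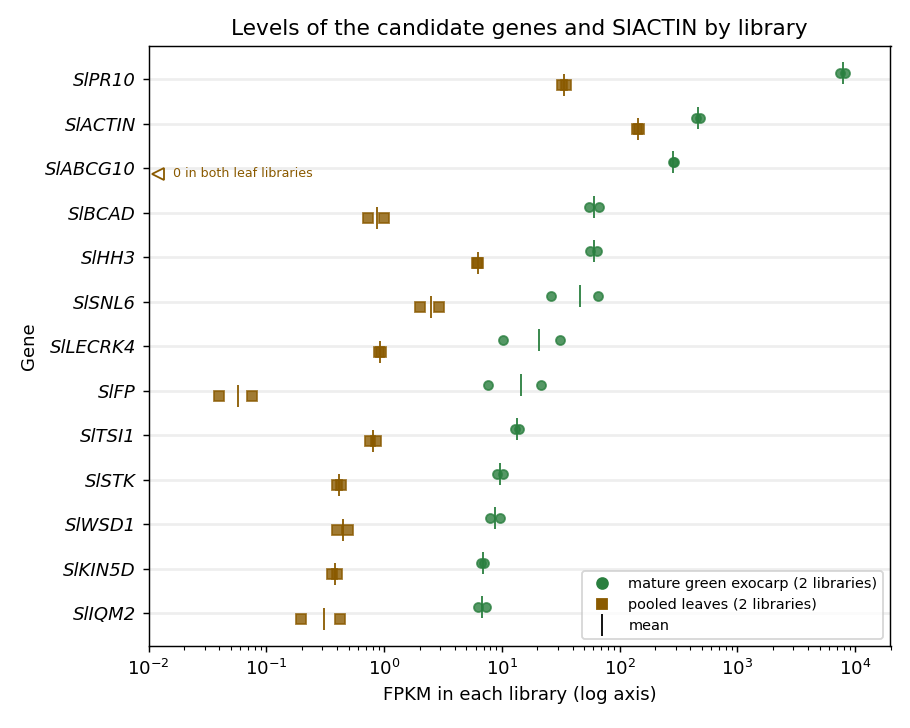
FPKM (horizontal log axis) of the 12 candidate genes and SlACTIN in each mature green exocarp library (green circles) and each leaf library (brown squares), with a vertical tick at the mean of 2 libraries and an open triangle for SlABCG10, which had no count in leaves. In every gene both circles lie to the right of both squares, and the circles of SlLECRK4, SlSNL6 and SlFP stand far apart.

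By their names, SlPR10, SlTSI1, SlLECRK4 and SlSNL6 belong to defence or stress responses, and all 4 were higher in the exocarp. So was every other candidate, and all of them were picked partly for a low leaf level. The count of 4 therefore says nothing about defence genes as a group. SlPR10 encodes a pathogenesis-related protein of class 10, a family of small proteins induced by pathogens and stress in many plants. Its FPKM was 7523 and 8207 in the exocarp libraries and 32.7 and 35.4 in the leaf libraries. In FPKM, without TMM scaling, the lowest exocarp library was 212.8 times the highest leaf library. SlPR10 ranked 2 of all genes by mean FPKM in the exocarp and 2989 in leaves. The log2 fold change was 7.54 (± 0.30 SE, edgeR adjusted p = 1.6e-07), or 186.6-fold after TMM scaling, and it ranked 230 of all genes tested. Here and below, SE is an approximate standard error. It is the absolute log2 fold change divided by the square root of the F statistic of edgeR's test. SlTSI1, whose name stands for a stress-induced tomato protein related to PR10, carries the identifier next to that of SlPR10 but was expressed far lower. It had 14.0 and 13.01 FPKM in the exocarp and 0.858 and 0.752 FPKM in leaves, which rest on 25 and 21 counts. Its log2 fold change of 3.74 (± 0.38 SE) was below that of its neighbour. How reads that fit more than a single gene were counted is not given in the sources used here, so values of close copies such as these are uncertain.

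SlLECRK4 is named as a lectin receptor kinase, a class of cell-surface receptors. Its exocarp libraries had 10.3 and 31.4 FPKM and its leaf libraries 0.939 and 0.907 FPKM. SlSNL6 shares its name with a rice gene for a protein like cinnamoyl-CoA reductase that acts in defence. It had 26.1 and 65.8 FPKM in the exocarp and 2.03 and 2.93 FPKM in leaves. In both genes exocarp replicate 2 was the high library, by 3.06 and 2.52 times. Even replicate 1 was clear of the leaves, at 10.9 and 8.90 times the higher leaf library in FPKM, without TMM scaling. The log2 fold change of SlLECRK4 was 4.19 (± 0.50 SE, edgeR adjusted p = 8.8e-05), and it was 3.15 without exocarp replicate 2 and 4.80 without exocarp replicate 1. That of SlSNL6 was 3.91 (± 0.53 SE, edgeR adjusted p = 0.000204), the largest p of the 12 genes, and it was 3.08 and 4.45 without the same libraries.

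By name alone, SlABCG10 was grouped under transport and SlWSD1 under surface lipids. What SlABCG10 carries in tomato is not given in the sources used here. SlABCG10 belongs by name to the G group of ABC transporters, some of which carry cuticle lipids out of the epidermis in Arabidopsis. It had 29346 and 28771 counts in the exocarp libraries, or 287.7 and 282 FPKM, and no count in either leaf library. The libraries did not overlap, the exocarp replicates differed by only 1.02 times, and its exocarp level was at least 6910-fold higher when leaves were set to 3 counts a library (edgeR adjusted p = 8.25e-07). SlWSD1 is named after an Arabidopsis enzyme that makes wax esters for the cuticle. It was a low gene in both organs, with 9.57 and 7.94 FPKM in the exocarp and 0.398 and 0.495 FPKM in leaves, and a log2 fold change of 3.95 (± 0.37 SE). Its leaf values rest on 27 and 31 counts.

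SlIQM2 and SlKIN5D are named after a calmodulin-binding protein and a microtubule motor of the kinesin family in Arabidopsis. They were the lowest of the 12 genes in the exocarp. SlIQM2 had 6.33 and 7.34 FPKM there and 0.42 and 0.198 FPKM in leaves, from 35 and 16 counts. SlKIN5D had 6.64 and 7.10 FPKM in the exocarp and 0.400 and 0.361 FPKM in leaves. The log2 fold changes, 4.12 (± 0.34 SE) and 3.84 (± 0.20 SE), were alike in size, but that of SlIQM2 depended on which leaf library was used: it was 4.76 without leaf replicate 1 and 3.72 without leaf replicate 2.

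For SlBCAD, SlFP, SlHH3 and SlSTK no role is given here. SlBCAD had 67.3 and 54.5 FPKM in the exocarp and 0.737 and 1.00 FPKM in leaves, a log2 fold change of 5.80 (± 0.28 SE, edgeR adjusted p = 4.01e-07). SlHH3 reached nearly the same exocarp level, 56.5 and 64.4 FPKM, but had 6.27 and 6.19 FPKM in leaves, so that its log2 fold change was 2.97 (± 0.17 SE, edgeR adjusted p = 1.02e-06). SlBCAD and SlHH3 overlapped in the green skin but not in leaves, where SlHH3 was the higher gene. SlSTK had 10.1 and 9.15 FPKM in the exocarp and 0.397 and 0.432 FPKM in leaves, a log2 fold change of 4.22 (± 0.35 SE).

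SlFP was close to absent from leaves. It had 7.65 and 21.6 FPKM in the exocarp and 0.0751 and 0.0396 FPKM in leaves, which stand for 451 and 1276 counts against 5 and 3. The exocarp count was 154 times the leaf count after scaling (95% exact interval 78.0 to 357, which covers counting error only). The fitted log2 fold change was 7.24 (± 0.65 SE, edgeR adjusted p = 1.54e-05), with 6.29 without exocarp replicate 2 and 7.83 without exocarp replicate 1. As for SlLECRK4 and SlSNL6, exocarp replicate 2 was the high library, by 2.83 times. The order of SlFP and SlPR10 depended on the measure. The ratio of mean FPKM was 255.4 for SlFP and 231.2 for SlPR10, whereas the fitted folds were 151.6 and 186.6. For SlFP the deposited FPKM fell further from exocarp to leaves than the scaled counts did. With 5 and 3 leaf counts, SlFP cannot be ranked against SlPR10 by its FPKM ratio.

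**Figure D3:**
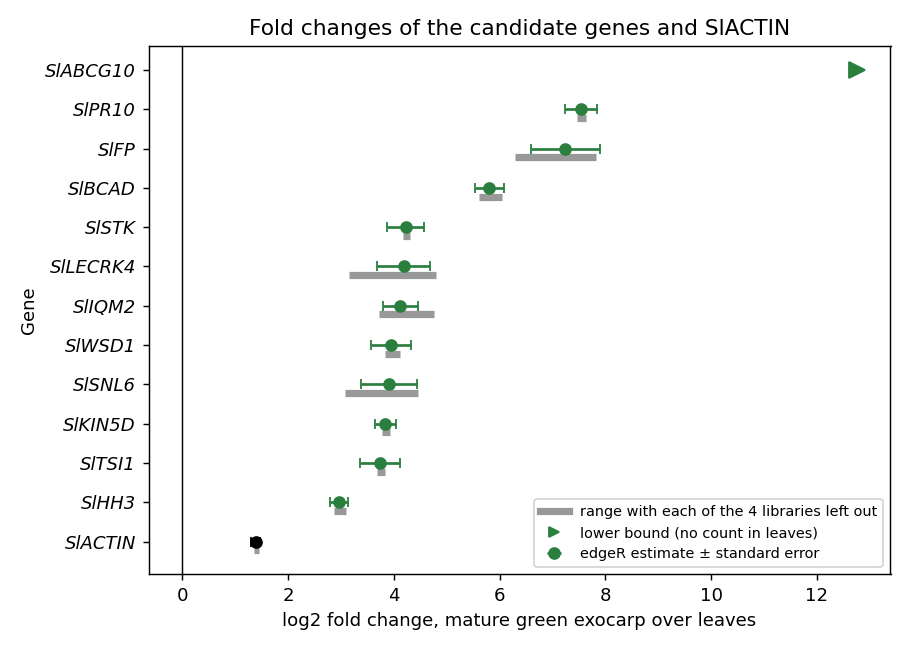
Log2 fold change of mature green exocarp over leaves (horizontal axis) for the 12 candidate genes and SlACTIN, as edgeR estimates (points) with standard errors (thin bars) and, in grey, the range when each of the 4 libraries was left out in turn; the triangle is the lower bound of SlABCG10. SlACTIN lies lowest at 1.39, and the grey ranges of SlLECRK4 and SlSNL6 are wide, from 3.15 to 4.80 and from 3.08 to 4.45.

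In the exocarp, SlPR10 and SlABCG10 stood clear of the other candidates. The libraries of SlBCAD, SlHH3 and SlSNL6 overlapped each other next, and those of SlIQM2 and SlKIN5D overlapped at the low end. In leaves SlPR10 was highest, followed by SlHH3 and then SlSNL6 with 2.48 ± 0.639 FPKM (SD, n = 2), and no libraries of these 3 genes overlapped. The other 9 candidates had a mean under 1 FPKM in leaves. There SlBCAD, at 0.870 ± 0.188 FPKM (SD, n = 2), overlapped SlLECRK4 and SlTSI1, and SlIQM2, at 0.309 ± 0.157 FPKM (SD, n = 2), overlapped SlWSD1, SlSTK and SlKIN5D.

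A low leaf level did not always mean a level below the fruit flesh. For 6 of the 12 candidates both leaf libraries lay over both green mesocarp libraries in FPKM, and for 5 they lay under them. Over all genes tested, leaves lay over green mesocarp without overlap in 35.5% and under it in 52.7%. TMM scaling, which FPKM lacks, would raise leaves relative to green mesocarp (factors 0.907 and 0.905 against 1.21 and 1.21). The shares and the order of close genes may therefore change with the scaling. SlBCAD is such a gene, with 0.737 and 1.00 FPKM in leaves and 1.03 and 1.13 FPKM in green mesocarp. SlHH3 had 6.23 ± 0.0558 FPKM in leaves and 2.20 ± 0.12 FPKM in green mesocarp (SD, n = 2 for each), while SlPR10 had 34.0 ± 1.88 FPKM in leaves and 220.04 ± 3.90 FPKM in green mesocarp. The candidates were also picked for an exocarp level far above that of the mesocarp. A low mesocarp level is therefore part of the choice, and their counts cannot be read against the shares of all genes. These orders are descriptions, without a test of leaves against mesocarp.

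SlACTIN, the gene that the study used to normalize RT-qPCR, was itself not level between the organs. It had 484.9 and 445.5 FPKM in the exocarp and 141.5 and 145.1 FPKM in leaves, and the groups did not overlap. The log2 fold change was 1.39 (± 0.08 SE, edgeR adjusted p = 1.31e-06), and over the alternative settings it lay between 1.28 and 1.70. The identifier was taken from a supplementary legend that prints it with a letter missing, and the primers are listed without an identifier, so whether the RT-qPCR measured this actin gene is not certain. Expressed per SlACTIN in each library, the exocarp-to-leaf ratio of FPKM was 71.5 for SlPR10, 80.1 for SlFP, 21.5 for SlBCAD and 3.00 for SlHH3. That of SlFP rests on 5 and 3 leaf counts and cannot be ranked against that of SlPR10. The other 7 candidates with a leaf count had ratios from 5.16 for SlTSI1 to 7.16 for SlSTK.

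The most abundant transcripts of the organs were different ones. None of the 10 genes with the highest mean FPKM in the exocarp was among the 10 highest in leaves. The lists of the 100 highest shared 17 genes (17% of each list), and those of the 1000 highest shared 365 (36.5% of each). SlPR10 was the only named gene among the 10 highest of the exocarp. Expression was more concentrated in leaves, where the 100 highest genes took 35.7% and 35.6% of the summed FPKM of the libraries, against 19.9% and 20.3% in the exocarp.

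The highest gene of the exocarp was Solyc10g075070.3, and the identifiers of 3 of its 10 highest genes are of chromosome 10. Of the 22801 genes tested, 1449 carry an identifier of that chromosome, and the difference was not tested. Solyc10g075070.3 had 8696 and 9917 FPKM in the exocarp and 1148 and 1185 FPKM in leaves, so it was also among the 100 highest of leaves. Its log2 fold change was 2.69 (± 0.27 SE). The highest gene of leaves was Solyc02g085933.1, with 10086 and 9702 FPKM in leaves and 42.9 and 35.8 FPKM in the exocarp, a log2 fold change of -8.28 (± 0.13 SE). It is listed at 0 FPKM in both red exocarp libraries and had 22.3 ± 0.838 FPKM (SD, n = 2) in green mesocarp. The 10 highest genes of leaves had between 29.4 and 1607 FPKM in the exocarp, and the 10 highest of the exocarp between 0.125 and 1565 FPKM in leaves. These genes were picked by their level in the same libraries, so their direction is no finding. In the longer lists, 82 of the 100 highest genes of the exocarp were called higher there and 11 lower. Of the 100 highest of leaves 94 were called lower in the exocarp and 5 higher. Over all genes tested 34.6% were called higher and 36.4% lower. The longer lists were picked in the same way, so these counts are no finding either.

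A part of the transcriptome was seen in only one of the organs. With a mean of at least 10 CPM in one tissue and at most 3 counts in each library of the other, 52 genes were seen in the exocarp and not in leaves, and 376 in leaves and not in the exocarp. SlABCG10 was the only named gene among them and ranked 2 by CPM among the 52. With each of the 4 libraries left out in turn the numbers were 45 to 65 and 370 to 476. A minimum of 1 CPM, chosen after the data were seen, gave 209 and 1229 genes, so the leaf side was the larger at both levels.

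The genes seen in the exocarp but not in leaves were mostly shared with the flesh of the green fruit. Each of the 52 had over 3 counts in a green mesocarp library, 31 of them had a mean of at least 10 CPM there, and 18 of the 31 were higher there than in the exocarp. The same shares among all genes at this exocarp level were not computed, so the counts are descriptions only. In red mesocarp, 17 of the 52 had a mean of at least 10 CPM and 11 had at most 3 counts in both libraries. Only 14 of the 52 were at least 10-fold higher in the exocarp than in green mesocarp by mean CPM, and SlABCG10 was one of these, at 47.0 times. The gene with the largest fitted change outside the named ones was Solyc04g007770.3, with 18380 and 16766 counts in the exocarp and no count in leaves, at least 4176-fold higher. In FPKM it had 435.5 ± 28.4 in the exocarp and 4153 ± 74.9 in green mesocarp (SD, n = 2 for each), so its highest level of the 5 tissues was in the flesh.

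Genes seen in leaves but not in the green exocarp were also mostly not seen in the red exocarp. Of the 376, 298 had at most 3 counts in each red exocarp library. The flesh was less empty: 143 had at most 3 counts in each green mesocarp library and 145 in each red mesocarp library, while 51 had at least 10 CPM in green mesocarp. In 102 genes no fruit library of any kind had over 3 counts, and in 17 genes both mesocarps had at least 10 CPM while no exocarp library had over 3 counts. For all genes at this leaf level the same shares were not computed, so the counts are descriptions only. The largest change belonged to Solyc03g097870.4, with 46703 and 45541 counts in leaves and no count in the exocarp, at least 21539.7-fold higher in leaves. It had 2.64 ± 0.314 FPKM (SD, n = 2) in green mesocarp against 870.6 ± 14.4 in leaves.

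**Figure D4:**
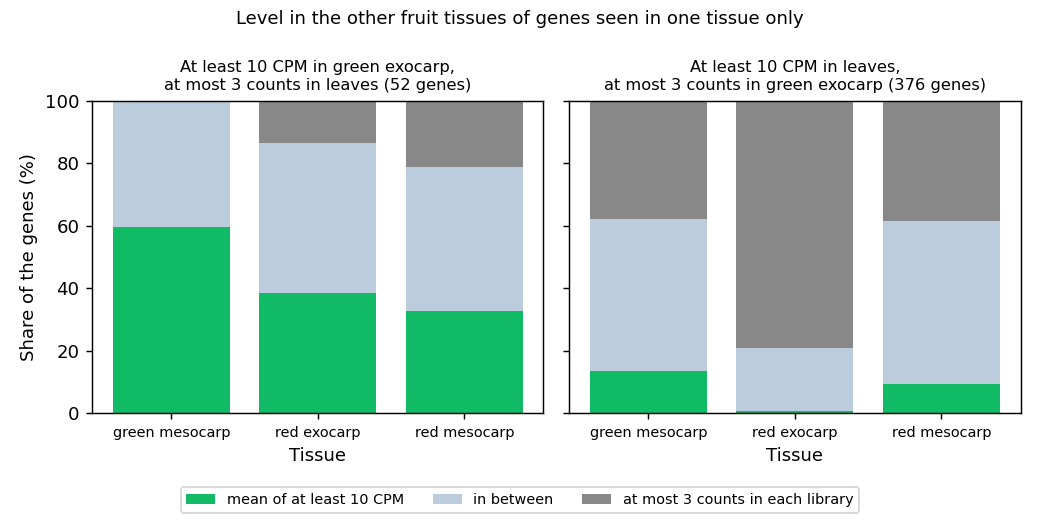
Share of genes (vertical axis, %) by their level in the other fruit tissues (horizontal axis), for the 52 genes seen in mature green exocarp and not in leaves (left) and the 376 genes seen in leaves and not in mature green exocarp (right). Green marks a mean of at least 10 CPM, grey at most 3 counts in each library and blue the levels between; on the left no gene is grey in green mesocarp, and on the right 298 of the genes are grey in red exocarp.

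The replicates were not equally close. Between the exocarp libraries, 355 of 11630 genes over 10 CPM on average were at least 2-fold higher in replicate 2 and 62 in replicate 1. Between the leaf libraries, of 12038 genes, 1 was this much higher in replicate 2 and 25 in replicate 1. Of the 355 genes, 231 were called higher in the exocarp than in leaves (65.1%) and 22 lower, and of the 62 genes 18 were called higher (29.0%) and 31 lower. Of all 11630 genes at this level, 51.8% were called higher and 27.1% lower. SlLECRK4, SlSNL6 and SlFP were among the named genes in this group, and the other 9 candidates had exocarp replicates within 1.24 times of each other. For each gene the model takes 1 spread from all 5 tissues and moderates it towards a trend over all genes. A gene that varies more in the exocarp is therefore tested against a spread that is partly from other tissues and other genes. With 2 libraries a tissue an exact permutation test cannot pass 0.05. The paper calls the replicates biological, and nothing says whether they are separate plants, so the p-values measure only the spread between these libraries.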

How the data were processed

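Poly(A) RNA of 5 tissues was sequenced in 2 libraries each. The authors deposited raw counts per gene and FPKM values (counts per transcript length and library size). The submitters' processing notes name HISAT2; the counting tool, genome build and annotation are not given in the sources used here. The kit in the labels does not mark strand, so overlapping genes on opposite strands cannot be told apart. Of the gene identifiers, 0 were found among 41476 RefSeq entries (assembly SLM_r2.1), so lists of pathway genes could not be named and were not used, and no sequences or coordinates are shown.

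Counts were filtered with filterByExpr, scaled by TMM and tested with edgeR 4.0.16 (quasi-likelihood, R 4.3.3) in one model of all 10 libraries, with Benjamini-Hochberg adjustment over 22801 genes and a threshold of 0.05. The spread of each gene rests on 5 residual degrees of freedom, and edgeR moderates it towards a trend over all genes tested. A tissue at or below 3 counts in each library was set to 3 counts in each for lower bounds. Depths are given with the results, and counting intervals cover counting error only. Named were the genes the paper pairs with an identifier and, from the rule on largest changes (at least 10 CPM, no overlap) and on highest FPKM, the first unnamed identifier in each direction. Members and rules were chosen with earlier results of these data known. Alternatives were DESeq2 1.42.0, other scalings, no filter, the 4 libraries alone, a replicate block, a stricter threshold, limma 3.58.1 on FPKM, and each library left out.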

Additional observations from a re-analysis of the deposited data

How the results depend on the processing

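Each named gene kept its direction and its side of the threshold under all 12 alternatives with a fit of its own (204 values in all for 17 genes). The number of genes past the threshold fell from 16198 to 9875 (4378 higher, 5497 lower) when calls were limited to changes of 1 or more on the log2 scale with adjusted p under 0.01. In the other settings it lay between 13704 and 16577, the lowest of them without leaf replicate 1. All 12 candidates stayed called in every count-based setting. limma on log2(FPKM + 1) called 9741 genes higher and 6374 lower, so that 60.4% were higher, and the median of all genes tested was 0.26. With the replicate number as a block, 15710 genes passed; the deviations of same-numbered exocarp and leaf libraries correlated by 0.045 across 12563 genes, and the samples share only a number. Fits without a library leave its tissue with 1 library, whose spread is assumed to be that of the others. Leaf levels under 1 FPKM rest on few counts.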

Other observations

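Genes whose identifier carries chromosome number 00, the label for sequence not placed on a chromosome, had a share called lower in the exocarp that rested on leaf replicate 1. Of 196 tested, 100 (51.0%) were called lower in the exocarp than in leaves and 1 higher, with a median log2 fold change of -2.21, against 36.4% lower and 34.6% higher over all genes tested. On the numbered chromosomes the share called lower ran from 33.2% to 39.0%. The summed level of the 196 genes was 166 and 156 CPM in the exocarp libraries and 1435 and 708 CPM in leaf replicates 1 and 2, and from 103 to 261 CPM in the other 6 libraries. The leaf replicates, the closer pair among genes over 10 CPM, stood apart here, with 126 of the genes at least 2-fold higher in replicate 1 and 12 in replicate 2. These counts had no minimum of 10 CPM, so they cannot be set against the counts for genes over 10 CPM. Without leaf replicate 1, 52 of 217 tested (24.0%) were called lower, against 29.5% of all genes, a share no longer above that of all genes. Without leaf replicate 2, 102 of 224 (45.5%) were called lower, against 29.4% of all genes.

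Of the loci listed without an annotation by the authors' pipeline, 820 were tested, and 204 were called higher and 262 lower in the exocarp (56.8% called, against 71% of all genes tested, with no test of the difference).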
